A study of Mus musculus with 13 samples.

Results

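The kinase cascade that runs from Mos to MAP kinase and its substrate kinases was followed as mRNA in single mouse oocytes, together with Dusp10, a dual-specificity phosphatase. The 8 genes were taken by symbol from the deposited tables: Mos, Map2k1, Map2k2, Mapk3, Rps6ka1, Rps6ka2, Rps6ka3 and Dusp10, out of 18939 genes with estimated counts and 49686 genes with FPKM values. All 8 were chosen with results of these libraries known, and Dusp10 was selected on its measured counts, because it had been called between both kinds of MII oocyte in an earlier look at these libraries. Its difference at MII, and its differences between stages, which use the same MII libraries, are therefore descriptions without a test, and so are the values of the other 7 genes between both kinds of MII oocyte.

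Oocytes came from C57BL/6 females of 3 to 4 weeks, 48 h after PMSG. At the germinal vesicle (GV) stage, mRNA for FBL-GFP, a fluorescent nucleolar protein, was injected, with H2B-mCherry mRNA as a chromatin label. The oocytes were then kept for 6 h in Cilostamide, an inhibitor that prevents the resumption of meiosis, and the FBL-GFP pattern was used to sort them into NSN (non-surrounded nucleolus) and SN (surrounded nucleolus) oocytes, and some were released to mature in culture to metaphase II (MII). The groups were 3 SN GV, 3 NSN GV, 4 SN-MII and 3 NSN-MII oocytes, 1 oocyte per library, and all groups shared the injection and the Cilostamide. The labels do not say which animals the oocytes came from or name any batch, so p-values measure the spread between these single oocytes.

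Mos is a serine/threonine kinase that oocytes translate as meiosis resumes. It phosphorylates the MAP kinase kinases Mek1 (Map2k1) and Mek2 (Map2k2), which in turn activate Erk kinases such as Erk1 (Mapk3), and these activate the ribosomal S6 kinases Rsk1 (Rps6ka1), Rsk3 (Rps6ka2) and Rsk2 (Rps6ka3). In oocytes the cascade is known for its part in spindle organization and in the arrest at MII. Dusp10 removes phosphate from MAP kinases and is known to prefer p38 and Jnk over Erk. The cascade itself works by phosphorylation and by timed translation, which mRNA levels do not measure.

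Total counts per library were between 7140416 and 8846287, and between 11593 and 13342 genes had a count. All 12 oocyte markers were found in every group. Their summed levels were 23478 to 25857 CPM in SN GV and 26535 to 31865 CPM in NSN GV libraries. At MII they were lower, at 20805 to 22863 CPM in SN-MII and 17167 to 17884 CPM in NSN-MII libraries. The 16 cumulus and granulosa cell markers summed to between 61.7 and 188 CPM, and Foxl2, Lhcgr, Ptx3 and Fst were at 0 in every library. The sums were between 61.7 and 93.5 CPM at GV and between 101 and 188 CPM at MII. In every group Cyp19a1 had the highest mean of this list. Its means were 53.8 CPM in SN GV, 47.1 in NSN GV, 96.6 in SN-MII and 112 in NSN-MII oocytes. Among the others, Kitl also had higher means at MII, whereas Nr5a2, Cyp11a1 and Fshr had lower means. The part of these markers in the stage differences was not tested. The third NSN-MII library stood apart, with the fewest genes and the largest share of counts in its top 10 genes (12.1%), and it is named beside values that rest on it. The fourth SN-MII library came next on both measures, with 11830 genes and a share of 11.0%. CPM below are counts per 1000000 of a scaled total, which is the library's total count multiplied by its TMM factor. These factors were between 1.06 and 1.26 at GV and between 0.799 and 1.01 at MII. Each value is therefore relative to the scaled total, and is neither a share of all counts nor an amount of mRNA per oocyte. FPKM also divides by transcript length and is used where genes are set against each other.

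The libraries were primed on poly(A) tails, so the letters near the 3′ end of each mRNA are shown first. The last 100 bases of each gene's principal transcript (GENCODE M21, GRCm38, the build called mm10) were searched on the transcript's strand for the poly(A) signal (AATAAA or ATTAAA) and for the cytoplasmic polyadenylation element (CPE, TTTTAT or TTTTAAT), the letters through which dormant maternal mRNAs are known to gain a tail during maturation. The last letters of a CPE can be the first letters of a signal, so both can overlap. In the lines below, capitals mark a signal or an element, and each stretch lies in the 3′ UTR in the last exon of its gene.
Mos, chr4:3870670-3870699, minus strand: cactagggcatatttttaggaAATAAAgtt
Map2k1, chr9:64185782-64185811, minus strand: ataaaaatactatcaagttaaAATAAAagg
Rps6ka1, chr4:133847304-133847333, minus strand: tcatctgtccaaggcctttctAATAAActt
Rps6ka2, chr17:7303280-7303309, plus strand: gattttttgAATAAAcatggaTTTTATgaa
Rps6ka3, chrX:159368203-159368232, plus strand: aaaagaaatggaaatttatatAATAAAgtt

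The 5 genes above held AATAAA in this window, and Rps6ka2 alone among the 8 also held a CPE. Map2k2, Mapk3 and Dusp10 held neither motif in their last 100 bases. Among 16560 genes with a 3′ UTR of at least this length, 81.2% held a poly(A) signal, 18.2% a CPE and 15.2% both. A match describes letters in the annotated transcript, and no match says only that these letters are not in this window. The genes themselves lie at chr4:3870657-3872105 (Mos), chr9:64185770-64253631 (Map2k1), chr10:81105915-81133975 (Map2k2), chr7:126759601-126765819 (Mapk3), chr4:133847290-133887797 (Rps6ka1), chr17:7170115-7303315 (Rps6ka2), chrX:159210307-159368244 (Rps6ka3) and chr1:184013302-184075636 (Dusp10).

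At GV, the mRNAs of the cascade covered a wide range of levels per length, and Mos led. Its level was 570 ± 41.9 FPKM (SD, n = 3) in SN GV oocytes and 642 ± 112 FPKM (SD, n = 3) in NSN GV oocytes. These means ranked it at position 172 of 20470 and position 147 of 20659 genes with an FPKM above 0. Mapk3 followed at 314 ± 31.7 and 346 ± 36.0 FPKM, then Map2k1 at 142 ± 8.798 and 137 ± 13.1 FPKM, and none of these 3 levels overlapped its neighbour. Dusp10, at 25.7 ± 1.86 and 20.96 ± 0.699 FPKM, overlapped Map2k2, at 21.6 ± 9.91 and 21.3 ± 15.4 FPKM. Rps6ka3 was at 10.1 ± 0.638 and 8.08 ± 2.37 FPKM, and Rps6ka1 at 1.90 ± 0.208 and 3.31 ± 0.690 FPKM. Rps6ka2 was last, between 0 and 0.30 FPKM in the 6 GV libraries.

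The order was different at MII. Mos, at 612 ± 199 FPKM in SN-MII (n = 4) and 434 ± 171 FPKM in NSN-MII oocytes (n = 3), overlapped Map2k1, at 370 ± 32.9 and 376 ± 75.4 FPKM. Map2k1 now stood above Mapk3, at 104 ± 39.4 and 140 ± 120 FPKM, without overlap. The lowest Mapk3 value, 10.07 FPKM, was that of the third NSN-MII library. In SN-MII oocytes Dusp10 kept the fourth position, at 17.5 ± 9.20 FPKM, and overlapped Map2k2. In NSN-MII oocytes Dusp10, at 2.62 ± 0.862 FPKM, came after Rps6ka3 (9.19 ± 1.22 FPKM) and before Rps6ka1 (1.30 ± 0.0945 FPKM), with no overlap on either side.

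**Figure D1:**
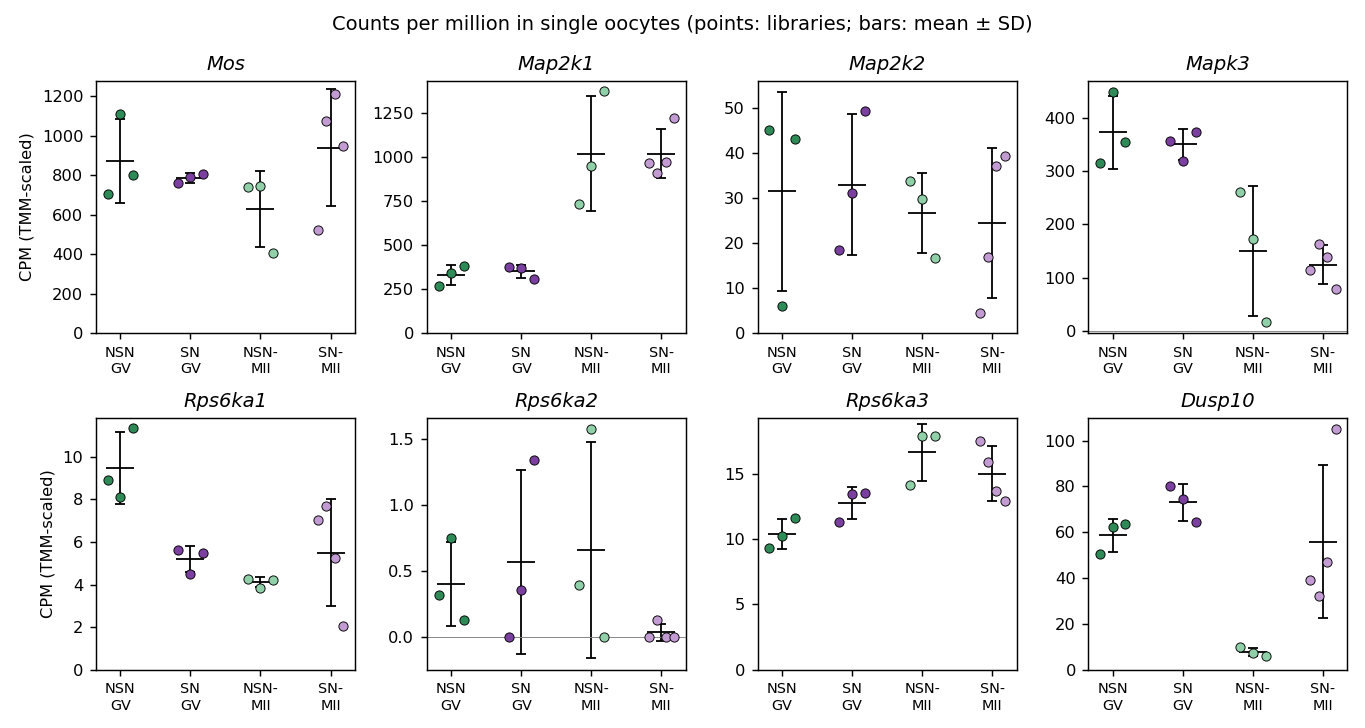
Level of each of the 8 mRNAs (vertical axis, CPM after TMM scaling, a separate linear scale per gene) in GV and MII oocytes of the NSN and the SN type. Points are single oocytes, the horizontal line is the mean and the bars are ± SD. Map2k1 is higher and Mapk3 lower in all 7 MII libraries than in all 6 GV libraries, and Dusp10 is at or below 9.75 CPM in the 3 NSN-MII oocytes.

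Mos mRNA was not called between stages or, at GV, between types. SN GV libraries held 758, 790 and 807 CPM, and NSN GV libraries 706, 1109 and 800 CPM. SN-MII libraries held 524, 1074, 1210 and 945 CPM, and NSN-MII libraries 738, 743 and 407 CPM. The 3 SN GV oocytes lay close together, with a coefficient of variation of 3.20%, whereas it was 24.2% in NSN GV, 31.6% in SN-MII and 30.6% in NSN-MII oocytes. The low NSN-MII value came from the third library. MII over GV, the log2 fold change was -0.11 ± 0.20 (SE; adjusted p = 0.646, edgeR quasi-likelihood test with Benjamini-Hochberg adjustment). It was 0.26 ± 0.27 in SN oocytes (adjusted p = 0.434) and -0.47 ± 0.29 in NSN oocytes (adjusted p = 0.177), and it became -0.25 when the third NSN-MII library was left out.

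Map2k1 rose from GV to MII in both kinds of oocyte. It stood at 375, 369 and 309 CPM in SN GV and at 269, 342 and 382 CPM in NSN GV libraries. At MII it stood at 966, 911, 970 and 1223 CPM in SN-MII and at 733, 947 and 1376 CPM in NSN-MII libraries. The lowest MII oocyte was thus almost at 2 times the highest GV oocyte, and the highest NSN-MII value was that of the third library. The log2 fold change was 1.58 ± 0.16 over all libraries (adjusted p = 2.63e-07), 1.53 ± 0.22 in SN (adjusted p = 2.6e-05) and 1.62 ± 0.23 in NSN oocytes (adjusted p = 2.7e-05). Across all genes tested, 68.6% were called between MII and GV, and 56.3% in SN as well as in NSN oocytes, so a stage difference as such was common. Of the genes called in SN oocytes, 44.6% were higher at MII, and 33.5% without TMM factors.

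Map2k2, the gene of the other Mek kinase, varied widely between oocytes of a group. Its values were 18.3, 31.1 and 49.4 CPM in SN GV, 45.2, 5.99 and 43.2 CPM in NSN GV, 4.38, 16.9, 37.0 and 39.4 CPM in SN-MII, and 33.8, 29.7 and 16.7 CPM in NSN-MII libraries. Single oocytes of a group differed by up to 8.996 times, and all 4 groups overlapped. The log2 fold change MII over GV was -0.33 ± 0.46 (adjusted p = 0.538). By FPKM, Map2k1 made up 86.8% ± 5.96 of the Mek pair in SN GV and 87.1% ± 9.15 in NSN GV oocytes, and 96.5% ± 2.19 and 95.2% ± 2.74 in SN-MII and NSN-MII oocytes.

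Mapk3 fell from GV to MII. SN GV libraries held 357, 319 and 374 CPM, and NSN GV libraries 315, 448 and 355 CPM. SN-MII libraries held 114, 164, 140 and 78.7 CPM, and NSN-MII libraries 260, 173 and 17.5 CPM. No MII oocyte reached the lowest GV oocyte, and the third NSN-MII library, with 104 counts, was at 0.0811 times the mean of the other 2. The log2 fold change was -1.40 ± 0.37 over all libraries (adjusted p = 0.00315) and -1.16 without that library. In SN oocytes it was -1.50 ± 0.50 (adjusted p = 0.0184), which became -1.33 (adjusted p = 0.0554) without the fourth SN-MII library. In NSN oocytes it was -1.31 ± 0.55 (adjusted p = 0.0517). It was -0.80 (adjusted p = 0.0263) without the third NSN-MII library and -1.98 (adjusted p = 0.0144) without the first, past the threshold in both cases. It was also called with DESeq2 size factors (-1.37, adjusted p = 0.0378), with no filter on low counts (-1.30, adjusted p = 0.0162) and with limma on log2(FPKM + 1) (-2.17, adjusted p = 0.0317) and log2(FPKM + 0.1) (-2.22, adjusted p = 0.0370). The replicate number as a block called it too (-1.48, adjusted p = 0.0483). The remaining alternatives did not call it (adjusted p up to 0.0936). Neither did leaving out any other library (adjusted p up to 0.119, without the second NSN GV library).

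The ratio of Mapk3 to Map2k1 FPKM was 2.23 ± 0.366 in SN GV and 2.54 ± 0.405 in NSN GV oocytes, and 0.288 ± 0.125 in SN-MII and 0.426 ± 0.3998 in NSN-MII oocytes. The mRNA of the kinase thus outnumbered that of its activator per length at GV, and the reverse held in each MII oocyte, where the highest ratio was 0.822. The lowest ratio, 0.0224, was that of the third NSN-MII library.

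The 3 Rsk genes were the lowest of the cascade. Rps6ka3 held 11.3, 13.5 and 13.5 CPM in SN GV, 9.35, 10.2 and 11.6 CPM in NSN GV, 17.5, 15.9, 13.7 and 12.9 CPM in SN-MII and 14.2, 17.9 and 17.9 CPM in NSN-MII libraries. The NSN groups did not overlap between stages, as was so for 61% of all genes tested. The SN groups overlapped, whereas 63.4% of all genes had SN groups without overlap. Its log2 fold change was 0.45 ± 0.20 MII over GV (adjusted p = 0.0525), 0.23 ± 0.27 in SN (adjusted p = 0.488) and 0.68 ± 0.29 in NSN oocytes (adjusted p = 0.0573). Without the fourth SN-MII library the pooled value was 0.49 (adjusted p = 0.0437). It was 0.41 (adjusted p = 0.0477) with DESeq2 and 0.59 (adjusted p = 0.0136) with upper quartile factors, both of which also called the difference in NSN oocytes (0.65, adjusted p = 0.0391, and 0.80, adjusted p = 0.0248). On the log2(FPKM + 1) scale the pooled difference was 0.11 (adjusted p = 0.563, limma). The ratio of Rps6ka3 counts to FPKM at equal depth, which follows the transcript length assigned in each library, varied 2.05-fold between libraries, against 1.203-fold for the median gene and 1.06-fold for Mos. By FPKM, Rps6ka3 made up between 56.4% and 95.2% of the 3 Rsk genes in single oocytes.

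Rps6ka1 was called between stages in NSN oocytes and not in SN oocytes. It held 5.61, 4.49 and 5.50 CPM in SN GV and 8.93, 8.11 and 11.4 CPM in NSN GV libraries, that is, between 38 and 90 counts. At MII it held 7.03, 7.70, 5.25 and 2.04 CPM in SN-MII and 4.28, 3.83 and 4.22 CPM in NSN-MII libraries. The 3 NSN GV oocytes were the highest of all 13. Over all libraries the log2 fold change MII over GV was -0.56 ± 0.32 and was not called (adjusted p = 0.132), but it was called without scaling factors (-0.84, adjusted p = 0.0339) and with limma on log2(FPKM + 1) (-0.54, adjusted p = 0.0299) and log2(FPKM + 0.1) (-0.81, adjusted p = 0.0461). From NSN GV to NSN-MII it fell by 1.201 ± 0.47 on the log2 scale (adjusted p = 0.0398). This call was lost with upper quartile factors (-1.07, adjusted p = 0.0616) and with no filter on low counts (adjusted p = 0.0762). It was also lost without the first SN GV library (-1.199, adjusted p = 0.0530), the first NSN GV library (-1.24, adjusted p = 0.0600), the third NSN GV library (-1.04, adjusted p = 0.115), and the first (-1.28, adjusted p = 0.0641), the second (-1.15, adjusted p = 0.0941) or the third (-1.24, adjusted p = 0.0652) NSN-MII library. In SN oocytes the difference was 0.08 ± 0.44 (adjusted p = 0.883), and the difference between both stage effects, NSN minus SN, was -1.28 ± 0.65, given without a test because it draws on the MII libraries of both types.

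Rps6ka2 was at the limit of detection. Its estimated counts were 0, 3 and 11.2 in SN GV, 3, 6 and 1 in NSN GV, 0, 1, 0 and 0 in SN-MII, and 3.29, 12.7 and 0 in NSN-MII libraries. It did not pass the filter on low counts and was not tested. A count of 0 allows up to 3 counts in a library of this depth, so a low level of Rps6ka2 in SN-MII oocytes was not detectable at this depth. Reads that the Rsk paralogs share were divided between them by RSEM, so the low values are uncertain.

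Dusp10 was described rather than tested at MII. SN GV libraries held 80.3, 74.6 and 64.5 CPM, and NSN GV libraries 50.3, 62.1 and 63.6 CPM. SN-MII libraries held 39.1, 32.3, 46.9 and 105 CPM, and NSN-MII libraries 9.75, 7.17 and 6.07 CPM. Counts in the NSN-MII libraries were 82, 58 and 36, against 252 to 771 in the SN-MII libraries. Each NSN-MII oocyte thus lay below each SN-MII and each GV oocyte, while the fourth SN-MII oocyte was the highest of all 13 and the other 3 lay below the GV range. Without that oocyte, the lower and upper ends of the SN-MII group were 32.3 and 46.9 CPM.

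NSN-MII over SN-MII, the log2 fold change of Dusp10 was -2.85 ± 0.43 (SE), and -2.36 without the fourth SN-MII and -2.71 when the third NSN-MII library was left out. From NSN GV to NSN-MII it was -2.93 ± 0.39, and from SN GV to SN-MII -0.39 ± 0.33, or -0.89 without the fourth SN-MII library. The difference between both stage effects, NSN minus SN, was -2.54 ± 0.51. At GV, where the choice of the gene used no value, Dusp10 was -0.30 ± 0.18 NSN over SN and was not called (adjusted p = 1). The 3 NSN GV oocytes were all below the 3 SN GV oocytes, with the nearest values at 63.6 and 64.5 CPM.

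**Figure D2:**
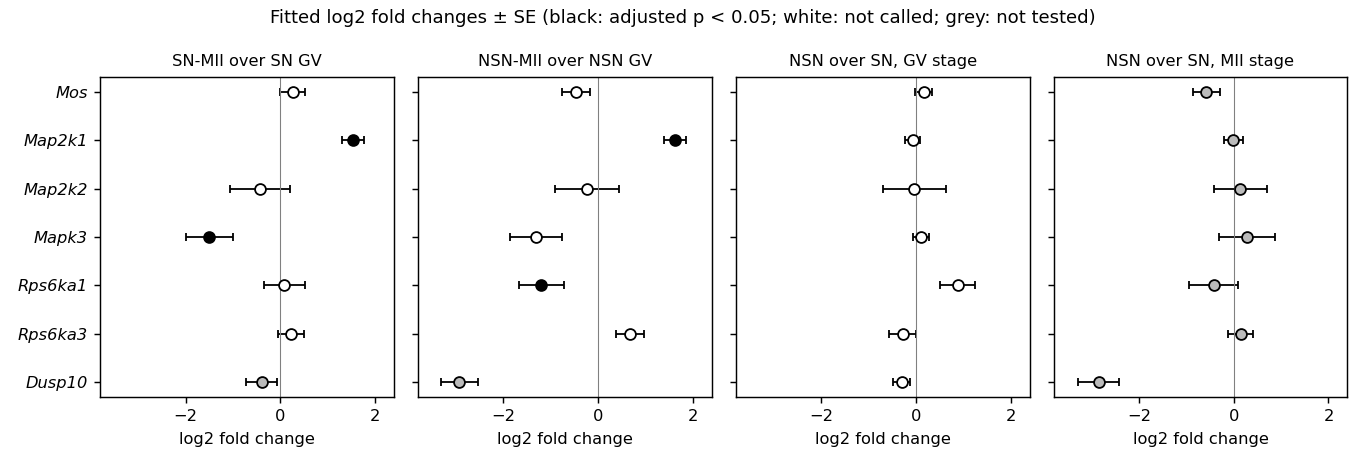
Fitted log2 fold changes (horizontal axis) of the 7 genes that passed the filter on low counts, with SE as bars, for SN-MII over SN GV, NSN-MII over NSN GV, NSN over SN at GV and NSN over SN at MII. Black points had an adjusted p under 0.05, white points were tested and not called, and grey points were not tested. Map2k1 is black on the right in both stage comparisons, and Dusp10 lies at -2.93 in the second and at -2.85 in the last panel.

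Of the 6 members tested between stages, 1 rose (Map2k1), 1 fell (Mapk3) and 4 were not called over all libraries, beside 31.7% of all genes higher and 36.9% lower. In SN oocytes Map2k1 rose and Mapk3 fell (25.1% of all genes higher, 31.2% lower), and in NSN oocytes Map2k1 rose and Rps6ka1 fell (25.5% higher, 30.8% lower). The groups of all MII and all GV libraries did not overlap for 2 of these 6 genes, against 47.4% of all genes tested. The median absolute log2 fold change was 0.51 over the 6 members and 1.14 over all genes. Between NSN and SN oocytes at GV, 0 of the 7 members tested were called by edgeR (0% of 10839 genes), and DESeq2 called none of them either. At an unadjusted p under 0.05 there was 1 member, Rps6ka1, which was 0.88 ± 0.36 higher in NSN GV oocytes on the log2 scale, against 1.75% of all genes. Rps6ka1 and Dusp10 had groups without overlap at GV, as did 6.04% of all genes.

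At MII, the differences between types of the members other than Dusp10 were as follows. They are not set against that of Dusp10, which was chosen for its difference in this comparison. The log2 fold change NSN-MII over SN-MII was -0.57 ± 0.29 for Mos, -0.0064 ± 0.20 for Map2k1, 0.14 ± 0.56 for Map2k2, 0.29 ± 0.59 for Mapk3, -0.43 ± 0.51 for Rps6ka1 and 0.15 ± 0.27 for Rps6ka3. The groups overlapped for each of these 6 genes. Leaving out 1 library moved Mos between -0.77 and -0.33, and Mapk3 between -0.36, when the first NSN-MII oocyte was dropped, and 0.81, when the third was. It moved Map2k1 between -0.26 and 0.18 and Map2k2 between -0.21 and 0.46. Rps6ka3 was at -0.16 on the log2(FPKM + 1) scale, so the sign of the difference was not stable for Map2k1, Map2k2, Mapk3 or Rps6ka3. Of 10028 genes, 0.259% were called by edgeR and 2.36% by DESeq2 between both kinds of MII oocyte, 9.38% had an unadjusted p under 0.05 and 10.2% had groups without overlap.

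The levels of the other genes of MAP kinase signalling were taken from 6 lists of 96 genes, of which 78 could be tested between stages. Changes of these genes are given as log2 fold changes, MII over GV, with SE. Over all libraries 35 rose, 20 fell and 23 were not called, beside 31.7% higher and 36.9% lower among all genes tested, and the median log2 fold change was 0.60, against -0.10 for all genes tested. The counts of each list below stand against the same 2 shares. Among receptors and Ras genes, 12 of 21 rose and 3 fell. Nras, a Ras GTPase, went from 60.02 to 95.0 CPM at GV to between 199 and 273 CPM at MII (1.57 ± 0.14, adjusted p = 4.87e-08), and Nf1 (1.59) and Rasa1 (1.45), which switch Ras off, rose as well. Hras fell by 5.19 ± 0.81 on the log2 scale (adjusted p = 2.54e-05), from between 4.30 and 6.61 CPM to at most 1.03 CPM. At so low a level its size is uncertain: it was -2.31 on the log2(FPKM + 1) scale and between -6.37 and -4.93 with 1 library left out. Spry1, an inhibitor of receptor signalling, fell by 2.48, and Egfr, an EGF receptor, by 2.03 with overlapping groups.

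Of 12 Raf and scaffold genes, 5 rose, 4 fell and 3 were not called, beside 31.7% of all genes higher and 36.9% lower. Braf rose by 1.62 from a low level, and Shoc2, a Raf activator, by 1.18. Araf fell by 1.84 ± 0.29 (adjusted p = 2.59e-05), Lamtor1, a subunit of the lysosomal Ragulator scaffold, by 1.07, and Ksr2, a scaffold of Raf and Mek, by 0.81 with overlapping groups.

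Among phosphatases of the same family as Dusp10, Dusp7, which is known to act on Erk, rose by 1.44 ± 0.15 (adjusted p = 2.75e-07), from between 83.0 and 132 CPM at GV to between 242 and 387 CPM at MII. Dusp1 rose by 1.33 ± 0.33 (adjusted p = 0.00185) and Dusp2 fell by 2.88 ± 0.88 (adjusted p = 0.00816), both with overlapping groups. Dusp2 had between 0 and 79 counts per library, and its value lay between -4.83 and -2.26 with 1 library left out and was -1.24 on the log2(FPKM + 1) scale. That made 2 higher, 1 lower and 2 not called out of 5 typical MAP kinase phosphatase genes tested. Of 7 atypical dual-specificity phosphatase genes, 3 rose (Dusp18 by 1.63, Dusp23 by 1.54 and Dusp14 by 1.29), 3 fell (Dusp12 by 1.29, Dusp19 by 0.76 and Dusp11, which fell by 1.202) and 1 was not called. Groups overlapped for Dusp19 and Dusp11.

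Dusp10 is known to act on p38 and Jnk. Of 21 Jnk and p38 genes, 7 rose, 7 fell and 7 were not called (31.7% of all genes higher, 36.9% lower), with a median log2 fold change of -0.36. The p38 kinase genes Mapk14 (fell by 2.56 ± 0.52, adjusted p = 0.000353) and Mapk11 (fell by 4.22 ± 0.74, adjusted p = 8.13e-05) were low at GV, at most 7.33 and 16.4 CPM, and at most 2.36 and 1.59 CPM at MII. On the log2(FPKM + 1) scale they were -0.83 (with no minimum) and -1.99. Map2k3, a p38 activator, fell by 2.42. Atf2, a transcription factor of this branch, rose by 1.84 and Map3k5 by 1.19. Mapkapk3, a p38 target kinase, rose by 1.26 with overlapping groups. It was not called with limma on log2(FPKM + 1) with no minimum (0.71, adjusted p = 0.0698).

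Downstream of Erk and Rsk, 6 of 12 genes rose, 2 fell and 4 were not called, beside 31.7% higher and 36.9% lower of all genes. Fbxo43, which encodes Emi2, the inhibitor of the anaphase-promoting complex that holds oocytes at MII and is a known Rsk target, rose by 1.45 ± 0.16 (adjusted p = 6.86e-07), from between 153 and 243 CPM to between 454 and 723 CPM. Elk4, an Erk-activated transcription factor, rose by 1.75 and Rps6ka6, which encodes Rsk4, by 1.46. Bub1, a spindle checkpoint kinase, fell by 2.29 ± 0.19 (adjusted p = 1.69e-08), from between 93.0 and 179 CPM to between 20.4 and 48.2 CPM.

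**Figure D3:**
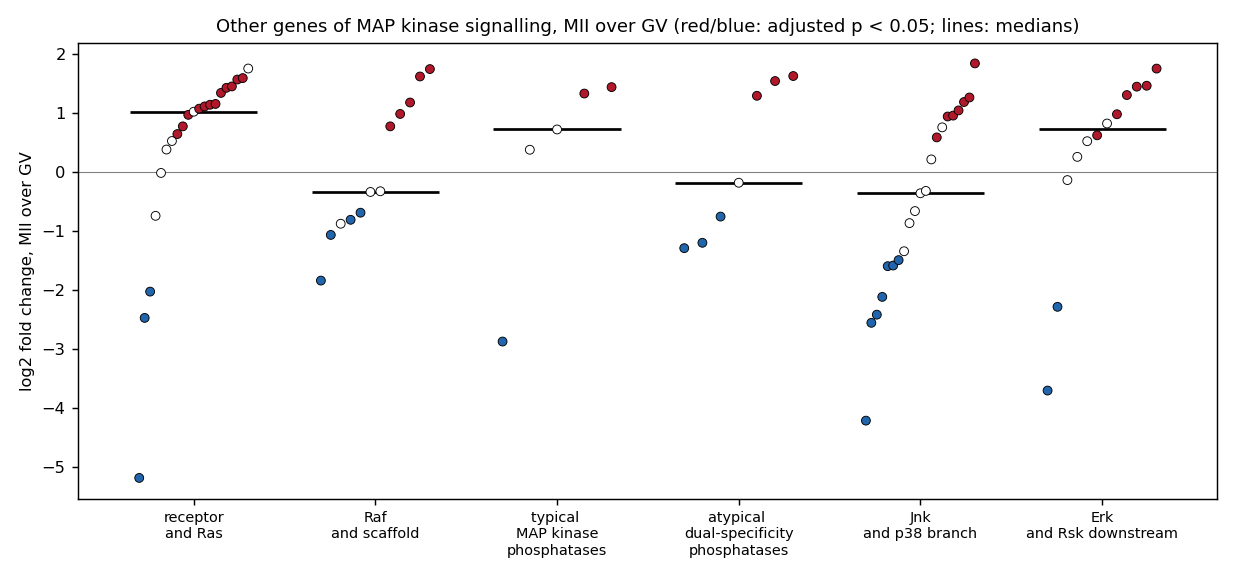
Log2 fold change MII over GV (vertical axis) of the 78 tested genes of 6 lists of MAP kinase signalling (horizontal axis). Each point is a gene, red where it rose and blue where it fell with an adjusted p under 0.05, white where it was not called, and the lines are the medians of the lists. The Raf and scaffold list holds 5 red and 4 blue points and the Jnk and p38 list 7 of each, and 12 of 21 receptor and Ras genes are red.

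Between types these lists held no call by edgeR. At GV, 0 of 75 genes tested were called, also with DESeq2, and the lowest p of the lists belonged to Ptpn11 (-0.48 ± 0.25), Lamtor1 (0.27 ± 0.19), Dusp2 (0.99 ± 0.86), Dusp23 (-0.47 ± 0.38), Map2k7 (0.87 ± 0.41) and Rps6ka5 (-0.44 ± 0.23), each with an adjusted p of 1. At MII, 0 of 71 genes tested were called. Fgfr2, a receptor of fibroblast growth factor, held 149, 176, 191 and 186 CPM in SN-MII and 118, 116 and 117 CPM in NSN-MII libraries, without overlap (-0.59 ± 0.16, adjusted p = 0.180). It was the 1 gene of the lists that DESeq2 called (adjusted p = 0.0322), beside 2.36% of all genes. Groups without overlap were seen for 8 of the 71 list genes, beside 10.2% of all genes. The lowest p of the other lists belonged to Lamtor1 (-1.01, adjusted p = 0.437), Dusp7 (-0.29, adjusted p = 0.616), Dusp14 (0.32, adjusted p = 0.643), Map3k7 (1.51, adjusted p = 0.450) and Mknk1 (-0.32, adjusted p = 0.531).

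The genes whose levels were most like those of Dusp10 over the 13 libraries were sought among 11523 genes whose mean FPKM was 1 or more, by Pearson's r of log2(FPKM + 1). They were Ube2t (r = 0.989), Pdcl3 (0.982), Aurkb (0.966), Gemin8 (0.964) and Bub3 (0.962). Ube2t encodes a ubiquitin-conjugating enzyme of the Fanconi anaemia DNA repair pathway, Aurkb the Aurora B kinase and Bub3 a spindle checkpoint protein. Ube2t was at 604 FPKM in NSN GV, 696 in SN GV and 434 in SN-MII oocytes, and at 38.7 FPKM in NSN-MII oocytes. Aurkb was at 14.2, 15.7 and 13.5 FPKM in the same 3 groups and at 2.71 FPKM in NSN-MII oocytes. These correlations describe libraries that fall into groups, and they share the oocytes and the low NSN-MII values for which Dusp10 was chosen. For the other members, r with Dusp10 was 0.54 (Mos), 0.52 (Mapk3), 0.30 (Rps6ka1), 0.13 (Map2k2), 0.10 (Rps6ka3) and -0.61 (Map2k1).

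**Figure D4:**
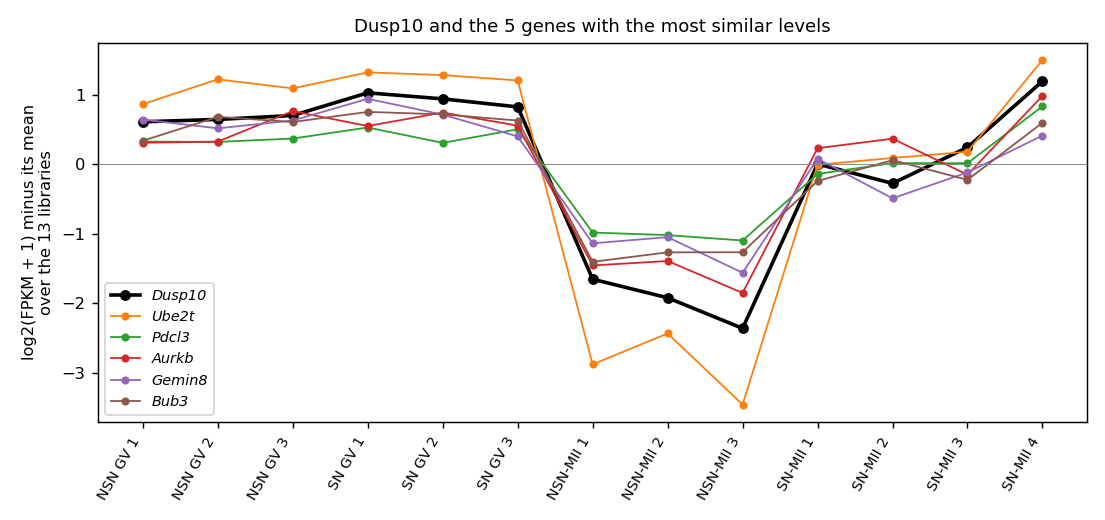
Log2(FPKM + 1) of Dusp10 (black) and of Ube2t, Pdcl3, Aurkb, Gemin8 and Bub3, each minus its mean over the 13 libraries (vertical axis), in each single oocyte (horizontal axis). All 6 genes are lowest in the 3 NSN-MII libraries, and the fourth SN-MII library is the highest of its group for each of them.

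For Mos the most similar genes were Dgat2 (r = 0.933), which makes triacylglycerol, Dll3 (0.891), Krt10 (0.879), Serpini1 (0.878) and Paqr6 (0.870). Dgat2 was at 36.1 FPKM in NSN GV, 26.2 in SN GV, 42.1 in SN-MII and 17.4 in NSN-MII oocytes. Among the members, Mapk3 was nearest to Mos, with r = 0.70, and Map2k1 farthest, with r = -0.39. Mos and Mapk3 were both low in the third NSN-MII library, at 0.549 and 0.0811 times the mean of the other 2, while Map2k1 was at 1.64 times.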

How the data were processed

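RNA-seq was read from 13 libraries of single oocytes, made with SMART-seq2 and Tn5 fragmentation, and groups were taken from the sample labels. Per the labels, the submitters' processing notes name Trim Galore 0.4.4, Bowtie2 2.3.5, RSEM 1.2.28, DESeq2 1.20.0 and mm10. The authors deposited estimated counts in 1 table per stage, as RSEM gives them, and between 11.0% and 16.6% of a library's values were not whole numbers. The authors deposited FPKM values in 1 table of all libraries. No molecular identifiers or strand step are named, so reads of overlapping or antisense genes cannot be told apart and counting intervals cover only part of the error. A lack of a long poly(A) tail and a lack of mRNA cannot be told apart in such libraries.

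Counts were rounded, filtered with filterByExpr, scaled by TMM and tested with the quasi-likelihood test of edgeR 4.0.16 (R 4.3.3), with Benjamini-Hochberg adjustment over all genes tested and calls at an adjusted p under 0.05. Stage comparisons used 1 fit of all 13 libraries, NSN against SN comparisons the 6 GV or 7 MII libraries. Means, SDs and coefficients of variation are over libraries. The SE of an edgeR log2 fold change was derived as its absolute value divided by the square root of the quasi-likelihood F statistic. No library was a copy of another library of its group. The scripts were checked on simulated data. The common biological coefficient of variation was 0.352 over GV and 0.344 over MII libraries.

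The members, the 6 pathway lists and the marker lists were chosen with earlier results of these data known. Genes were named by rule: the members, up to 3 called genes in each direction with the largest change per list and comparison (otherwise the gene with the lowest p), and the 5 genes most correlated with Dusp10 and with Mos. Iqgap1 was named after its values were seen. Alternatives were DESeq2 1.42.0, its size factors, no scaling factors, upper quartile factors, no filter, limma 3.58.1 (trend) on log2(FPKM + 1) and log2(FPKM + 0.1), with a minimum mean FPKM of 1 or none, the replicate number as a block, all libraries in 1 fit, and leaving out each library. Sequences came from GENCODE M21 transcripts, to which 8 of 8 members were matched by symbol. Some genes that the rule names are not reported here. Raw reads, protein sequences, imaging and maturation rates were not analysed here.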

Additional observations from a re-analysis of the deposited data

Results flagged for a closer look

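Rps6ka2 in the 4 SN-MII libraries was singled out because 1 library lay apart from the others: the gap of the highest to the nearest value, divided by the whole range, was 1. The values behind it were counts of 0, 1, 0 and 0, so a single read made the difference. With so few counts the ratio is 1 whenever a single library holds a read, so the limit for such gaps says little here. All other members were inside the limit in the SN-MII group, the 1 group with enough libraries for this comparison.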

How the results depend on the processing

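With 3 or 4 oocytes per group, only large and even differences could be called. Map2k1 was called MII over GV under all 22 alternatives (1.27 to 1.71), and so was Mapk3 (-1.95 to -1.16). Dusp10, which was chosen for its difference NSN-MII over SN-MII and not tested there, lay between -3.07 and -2.27 in this comparison. That range describes the chosen value and is no support for it. The number of members called in SN oocytes was 2 and became 1 with limma on log2(FPKM + 1), with or without the minimum, with limma on log2(FPKM + 0.1) and with the replicate block, in each case by the loss of Mapk3. Leaving out 1 library gave from 1 to 3 members called in SN and from 1 to 2 in NSN oocytes. The lists held 1 called gene NSN-MII over SN-MII with DESeq2 (Fgfr2), beside 2.36% of all genes. They held from 0 to 1 when 1 library was left out, the 1 being Iqgap1 (1.43 ± 0.29, adjusted p = 0.0300) without the third NSN-MII library. The cause was not tested in any of these cases.

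The median log2 fold change MII over GV of all genes was -0.10 with TMM, -0.14 with DESeq2 size factors, -0.39 without scaling factors, 0.03 with upper quartile factors and -0.24 on FPKM. Directions that turned belonged to differences that were not called or not tested. Mos became 0.032 MII over GV with upper quartile factors and -0.044 in SN oocytes without scaling factors, where Rps6ka3 became -0.063 and Rps6ka1 -0.19. Rps6ka1 in SN oocytes was also -0.19 with limma on log2(FPKM + 1), with or without the minimum, and -0.35 on log2(FPKM + 0.1), and Map2k2 in NSN oocytes was 0.032 and 0.072 on these scales. Leaving out 1 library moved Rps6ka1 in SN oocytes between -0.12 and 0.36, Map2k2 in NSN oocytes between -0.72 and 0.12, and, NSN over SN at GV, Mos between -0.024 and 0.25, Map2k1 between -0.16 and 0.013, Map2k2 between -0.47 and 0.45, Mapk3 between -0.027 and 0.17 and Dusp2 between -0.36 and 1.74.

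Whether replicate numbers pair the libraries could not be decided, because same-numbered libraries were not set against different-numbered ones. The correlation of same-numbered deviations was -0.46 to -0.21 between the GV groups and -0.12 to 0.10 between the MII groups. It was -0.037 to 0.048 between SN GV and SN-MII and 0.029 to 0.20 between NSN GV and NSN-MII libraries. With the number as a block, 2 genes instead of 26 were called NSN-MII over SN-MII, and Mapk3 became -1.34 (adjusted p = 0.0646) in SN and -1.48 (adjusted p = 0.0483) in NSN oocytes.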
